A study of Mus musculus with 54 samples.

Results

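Stra8 and 6 further genes of germ cell development and meiosis (Rec8, Sycp1, Sycp3, Dazl, Ddx4 and Mael) were followed in mouse embryonic stem (ES) cells treated with retinoic acid (RA). The 7 genes were chosen by name, not by a measured value, and are 7 of 26771 named genes among the 38363 entries of the RA table. A second table with 39067 entries gives the same genes in cells without RA. The 8 RA libraries came from 46C cells (strain 129/Ola, with GFP in the Sox1 locus), either wild type (WT) or with 58 kb deleted at the gene of Haunt, a long noncoding RNA (58 kb KO). Before RA the cells were held for a day without serum, in N2B27 with LIF and the inhibitors PD03259010 and CHIR99021. They were then passaged without LIF or inhibitors into 2 µM RA and taken at day 2 or day 4. Each genotype and day has 2 libraries, named WT-1 and WT-2 or KO-i and KO-j, and the labels do not say whether the names stand for clones or cultures. The RA table used here holds no untreated 46C library. A second table follows WT ES cells of the lines CJ7, JF4 (both 129S1/SVImJ) and J1 (129S4/SvJae), grown with serum, after withdrawal of LIF, the cytokine that maintains self-renewal. Its columns for days 0, 2 and 6 average 3, 2 and 3 libraries (a mean made by the authors), and day 4 is 1 library. Mesendoderm (ME, from cells with GFP in T), neural progenitors (NPC, from 46C) and neural stem cells (NSC, from 46C) are 1 library each, all of strain 129/Ola. The columns draw on different lines (CJ7 and JF4 at day 0, J1 and CJ7 at day 2, CJ7 at day 4, all 3 at day 6), so in this table day or lineage and cell line cannot be told apart. All values are FPKM, fragments per kilobase of transcript scaled to the mapped total of each library, so they can be set against each other between genes as levels per length.

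In the gonad, RA from surrounding tissue switches on Stra8, whose protein takes germ cells into meiosis. Meiotic chromosomes are held by a cohesin that carries REC8 in place of its mitotic counterpart, and homologues are paired by the synaptonemal complex, in which SYCP3 forms the axis and SYCP1 the transverse filaments. DAZL is an RNA-binding protein that makes germ cells competent to enter meiosis, DDX4 (Vasa) is an RNA helicase of germ granules, and MAEL acts in the piRNA pathway that silences transposons. In ES cells and somatic tissue many such genes are held silent by CpG methylation and by a Polycomb complex (PRC1.6) that holds E2F6 and the E-box binders MGA and MAX.

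Promoter sequence is shown for 3 of the genes because they carry the letters that RA receptors, MGA with MAX, and E2F proteins are known to bind. The 250 bases before each annotated start are from RefSeq (GRCm38.p6), read along the gene, and all 7 genes had an entry. Capitals mark the hexamer AGGTCA in Stra8 (chr6:34920698-34920947, strand +), the E-box CACGTG, the E2F core GCGGGAA and AGGTCA in Sycp3 (chr10:88459337-88459586, strand +), and the E-box and E2F core in Ddx4 (chr13:112652311-112652560, strand -).
Stra8: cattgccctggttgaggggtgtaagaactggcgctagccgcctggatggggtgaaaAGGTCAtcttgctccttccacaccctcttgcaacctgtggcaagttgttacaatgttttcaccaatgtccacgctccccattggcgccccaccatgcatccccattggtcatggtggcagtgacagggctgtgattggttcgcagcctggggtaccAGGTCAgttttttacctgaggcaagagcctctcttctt
Sycp3: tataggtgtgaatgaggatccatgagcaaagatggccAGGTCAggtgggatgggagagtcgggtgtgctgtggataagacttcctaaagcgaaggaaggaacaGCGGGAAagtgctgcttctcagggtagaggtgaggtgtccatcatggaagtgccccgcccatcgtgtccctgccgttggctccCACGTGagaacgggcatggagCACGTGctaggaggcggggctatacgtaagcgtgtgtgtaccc
Ddx4: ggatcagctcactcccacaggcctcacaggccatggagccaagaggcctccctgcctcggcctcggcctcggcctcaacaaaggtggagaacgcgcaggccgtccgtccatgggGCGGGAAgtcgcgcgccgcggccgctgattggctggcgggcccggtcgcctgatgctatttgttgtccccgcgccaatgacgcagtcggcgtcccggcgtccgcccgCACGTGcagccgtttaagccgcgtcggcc
Stra8 held AGGTCA at 194 to 189 and at 38 to 33 bases before the start, and neither an E-box nor the E2F core. Both strands were searched. The E-box lay in Sycp1, Sycp3 (2 copies), Ddx4 and Mael, so in 4 of 7 windows, against 6.02% of 32851 promoter windows of the same length. The E2F core lay in Sycp3 and Ddx4, against 3.82% of all windows, and it overlapped no E-box. The hexamer AGGTCA and its relatives, spelled GGTTCA or else with a G first as GGGTCA, were searched as well. At least 1 of them was found in Stra8 and Sycp3, and in 30.4% of all windows. No member window held a pair of these hexamers in direct repeat spaced by 1, 2 or 5 bases, which 0.110%, 0.125% and 0.0396% of all windows did. Ddx4 was the member richest in CpG with 31 in the window and Stra8 the poorest with 5, where the median of all windows was 6. These are matches of letters and not measured binding.

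Haunt itself, listed as Gm15055 (mm9 chr6:52052948-52062531), checked the labels. At day 2 it stood at 128 and 142 FPKM in the WT libraries, 1.13 in KO-i and 0 in KO-j. On day 4 the same libraries gave 31.8, 40.6, 3.08 and 0.447. Its loss passed the test across all 15705 tested genes at day 2 (limma adjusted p = 0.0153) but not at day 4 (limma adjusted p = 0.128). The test at day 4 therefore missed the deleted gene. At day 2 the call was lost when any 1 library of that day was left out. At each day, a member that did not pass is thus not shown to be unchanged. Depth, estimated from the steps between low values, was 9.04 to 16.4 M reads in the RA libraries. It was lowest in KO-i and highest in KO-j at day 2. KO-i also stood apart in the summed level of 5 pluripotency markers (Pou5f1, Nanog, Zfp42, Esrrb, Klf4), at 176 FPKM at day 2 against 363 to 490 in the other libraries and at 49.0 at day 4 against 65.3 to 92.9. The summed level of 6 extraembryonic endoderm markers at day 4 was 47.7 and 51.2 FPKM in the knockout libraries and 99.4 and 131 in the WT libraries. The part of depth or of these other cell types in the values below was not tested.

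Stra8 (mm9 chr6:34870960-34889342) was among the highest genes of every RA library. At day 2 it stood at 1165 FPKM in WT-1, 735 in WT-2, 2376 in KO-i and 1261 in KO-j. The values at day 4 were 834, 395, 2315 and 1430 in the same order. Among the 8 libraries it ranked between 10 (KO-i, day 4) and 149 (WT-2, day 4) of 26771 named genes. In bulk RNA such as this, fewer cells of a type and less RNA per cell cannot be told apart. Both knockout libraries lay above both WT libraries at each day, by a small margin at day 2, where KO-j and WT-1 were close neighbours. At day 2 the 58 kb KO group exceeded WT by 0.90 log2 units, with an SE of 0.448 and a limma adjusted p = 0.88. At day 4 the excess was 1.66 log2 units, with the same SE of 0.448 and a limma adjusted p = 0.206, so neither passed. Without adjustment the p from limma at day 4 was 0.00670, and across all genes 2263 of 15705 were under 0.05 in this way, while none passed after adjustment. The knockout difference at day 4 was larger than that at day 2 by 0.76 log2 units, which did not pass either (limma adjusted p = 0.941). Between days, Stra8 was lower at day 4 in WT-1 and WT-2, at 0.716 and 0.537 times the day 2 level, a difference of -0.69 log2 units that did not pass (limma adjusted p = 0.301). The same difference passed when library names were taken as a block (limma adjusted p = 0.0127). In the knockout libraries day 4 was at 0.974 times (KO-i) and 1.13 times (KO-j) the level of day 2. That difference did not pass without or with the block (limma adjusted p = 0.928 and 0.709).

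Rec8, the meiotic cohesin subunit (mm9 chr14:56237003-56244232), was the other member at a high level and rose with time in RA. At day 2 it stood at 136 FPKM in WT-1, 80.6 in WT-2, 239 in KO-i and 148 in KO-j. The values at day 4 were 258, 208, 376 and 397. All 4 libraries of day 4 except WT-2 lay above all libraries of day 2, and each library name went up, by 1.57 times (KO-i) to 2.68 times (KO-j). The rise was 1.14 log2 units in WT (SE 0.284, limma adjusted p = 0.0243) and 1.03 log2 units in 58 kb KO (SE 0.284, limma adjusted p = 0.0449). Leaving out 1 library ended this call in most fits of each genotype. It was kept only without WT-1 at day 2 in WT and without KO-i at day 2 in 58 kb KO. Over these fits the rise ran from 0.77 to 1.51 log2 units in WT and from 0.69 to 1.38 in 58 kb KO. Both knockout libraries again lay above both WT libraries at each day. That difference, 0.84 log2 units at day 2 and 0.74 at day 4, did not pass (limma adjusted p = 0.88 and 0.311). Rec8 and Stra8 both stood far above the other 5 genes.

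Of the synaptonemal complex genes, Sycp3 (mm9 chr10:87922332-87935981) fell with time and Sycp1 (mm9 chr3:102622422-102740023) stood near 1 FPKM in most libraries. Sycp3 stood at day 2 at 1.27 FPKM in WT-1, 1.74 in WT-2, 3.04 in KO-i and 2.34 in KO-j. Its values at day 4 were 0.109, 0.137 and 0.809 in the first 3 of these, and it was listed at 0 in KO-j. Every day 4 library lay below every day 2 library, and KO-i was the highest at both days. The fall was 1.15 log2 units in WT (limma adjusted p = 0.0290) and 1.45 log2 units in 58 kb KO (limma adjusted p = 0.0200), on a scale of log2(FPKM + 1) that understates the change of so low a gene. Sycp3 passed the filter on low values only through its day 2 libraries, so the direction of this call is not independent of the filter, and its values are given as a description. These values rest on few reads, an estimated 1.10 and 2.20 per kilobase in the WT libraries of day 4. Leaving out any 1 WT library ended the call in WT (limma adjusted p from 0.0841 to 0.151). In 58 kb KO it was lost without KO-i or KO-j at day 2 (limma adjusted p from 0.0174 to 0.0769 over its fits). The end of Sycp3 overlaps Chpt1 (mm9 chr10:87935558-87966715), a phospholipid synthesis gene at 5.06 to 13.2 FPKM and highest in KO-i at both days, and since these libraries do not mark strand, reads of the overlap cannot be told apart. Sycp1 stood at 0.908, 1.16, 1.23 and 1.11 FPKM at day 2 and at 0.766, 0.773, 2.26 and 0.582 at day 4, in the order WT-1, WT-2, KO-i and KO-j. Only KO-i at day 4 stood off from the rest, and no contrast of Sycp1 passed.

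The 3 germ cell RNA genes shared an order in which KO-i was highest at both days. Dazl (mm9 chr17:50418718-50432945) stood at day 2 at 8.85 FPKM in WT-1, 11.3 in WT-2, 12.5 in KO-i and 8.12 in KO-j, and at 5.85, 8.84, 10.4 and 6.97 at day 4. KO-j lay within or below the WT range, so the genotypes overlapped at both days. Ddx4 (mm9 chr13:113388541-113442518) stood, in the same order, at 3.91, 6.64, 8.89 and 5.01 FPKM at day 2 and at 4.48, 3.95, 9.74 and 2.85 at day 4. Mael (mm9 chr1:168131516-168168875) stood at 9.07, 14.6, 26.4 and 10.5 FPKM at day 2 and at 5.18, 7.85, 22.4 and 6.30 at day 4. For both genes KO-i lay above the other libraries and KO-j lay among or below the WT libraries. Without a block by library name, no contrast of these genes passed. Mael at day 4 gave the largest knockout difference of the 3 genes, 0.82 log2 units (SE 0.590, limma adjusted p = 0.546). Their WT levels at day 4 were lower than at day 2 by 0.42 log2 units for Dazl, 0.24 for Ddx4 and 0.76 for Mael, none past the test (limma adjusted p = 0.303, 0.755 and 0.383). With library names as a block, the differences of Dazl and Mael passed (limma adjusted p = 0.0468 and 0.0134).

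**Figure D1:**
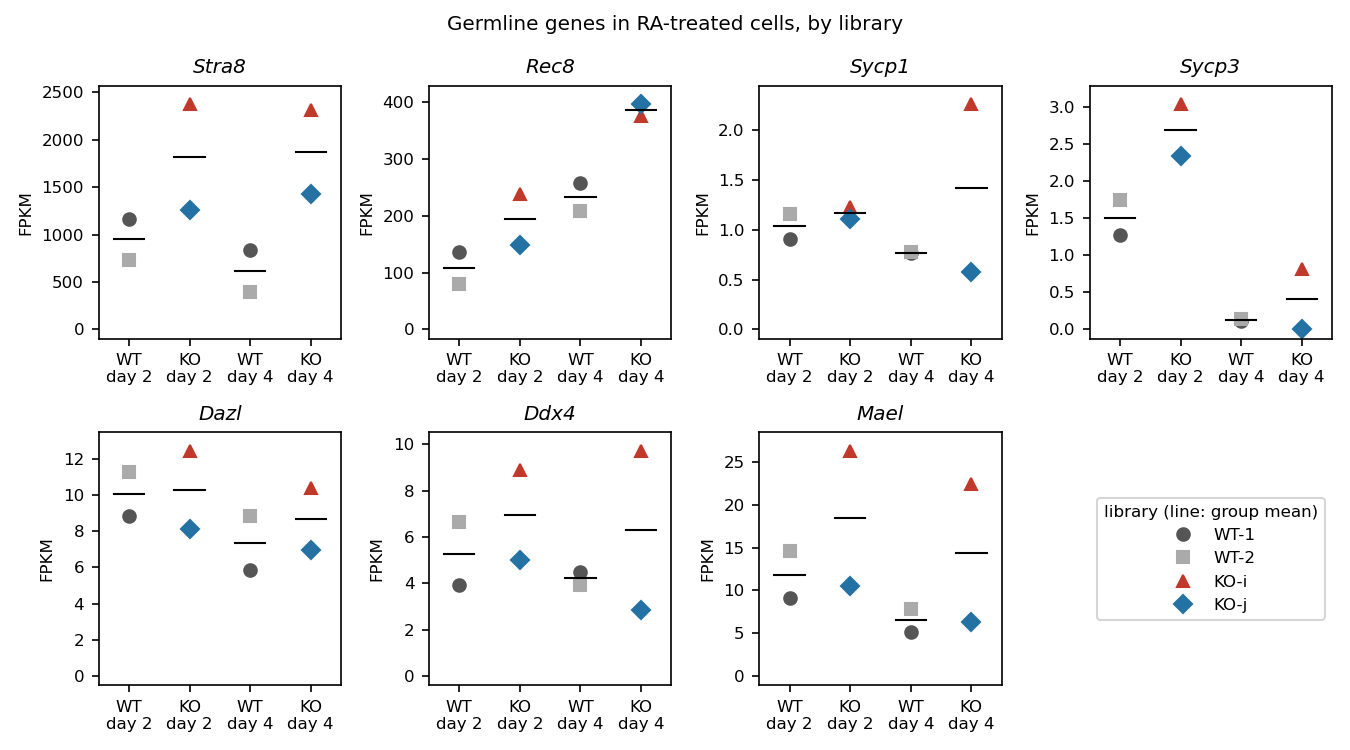
FPKM (linear axes that include 0) of the 7 genes in each RA library, by genotype and day; each point is 1 library and the line is the mean of the 2 libraries of a group. Stra8 lies at 395 to 2376 FPKM with both knockout libraries above both WT libraries, Rec8 rises from day 2 to day 4, Sycp3 falls, and the triangle of KO-i is highest in 6 of 7 genes at both days.

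Over the 7 genes, 0 passed for 58 kb KO against WT at day 2 in the higher direction, where 0.00637% of all tested genes did (1 of 15705). At day 4, 0 passed, as did 0% of all genes. Under an unadjusted limma p of 0.05 were 1 of 7 at day 2 (Rec8) and 2 of 7 at day 4 (Stra8 and Rec8), beside 803 and 2263 of 15705 genes. From day 2 to day 4 in WT, 1 of 7 rose (Rec8), against 14.4% of all genes, and 1 of 7 fell (Sycp3), against 10.9%. The 58 kb KO cells gave the same genes in the same directions, 1 of 7 higher against 10.0% of all genes and 1 of 7 lower against 7.81%. These shares are near the background, and Sycp3 entered the test only through day 2. Both knockout libraries lay above both WT libraries for 3 of 7 genes at day 2 (Stra8, Rec8 and Sycp3), against 23.1% of all genes, and for 2 of 7 at day 4 (Stra8 and Rec8), against 24.9%.

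KO-i and KO-j differed for most of the 7 genes. KO-i was the highest of the 4 libraries at both days for 6 of 7 genes, all but Rec8, against 19.3% of all tested genes. KO-i exceeded KO-j by more than 0.5 log2 units at both days for 4 of 7 genes (Stra8, Dazl, Ddx4 and Mael), against 2.30% of all genes, a limit that was set after the values were seen. Of these 4 Mael differed most, with 2.50 times the KO-j level at day 2 and 3.56 times at day 4. Stra8 in KO-i was 1.88 and 1.62 times its level in KO-j. Dazl lay closest to the limit, at 0.56 and 0.52 log2 units, while Rec8 was 0.68 log2 units higher in KO-i at day 2 and 0.08 lower at day 4. Set against the WT mean, KO-j alone was higher for Stra8 by 0.45 log2 units at day 2 and 1.32 at day 4, and for Rec8 by 0.50 and 0.77. Ddx4 and Mael in KO-j lay below the WT mean at both days, by 0.03 and 0.44 log2 units for Ddx4 and by 0.12 and 0.02 for Mael. When KO-i was left out at both days, the signs of the knockout difference turned for Dazl, Ddx4 and Mael at day 2 and for Sycp1, Sycp3, Dazl, Ddx4 and Mael at day 4, and stayed for Stra8 and Rec8. Genes of whole chromosomes also shifted together. The median difference from WT of 506 genes on chromosome 1, which carries Mael, was 0.31 log2 units at day 2 and 0.29 at day 4 in KO-i, against 0.01 and -0.02 in KO-j. For the 72 of them within 10 Mb of Mael it was 0.32 in KO-i at each day, against -0.02 and -0.07 in KO-j. On chromosome 6, which carries both Stra8 and the deletion at Haunt, the median of 404 genes was 0.20 and 0.15 in KO-j and 0.09 and 0.05 in KO-i. For the 60 of them within 10 Mb of Stra8 it was 0.23 and 0.15 in KO-j and 0.13 and -0.00498 in KO-i. Stra8 itself differed from the WT mean by 0.45 and 1.32 in KO-j and by 1.36 and 2.01 in KO-i. The part of these shifts in the members' values was not tested.

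**Figure D2:**
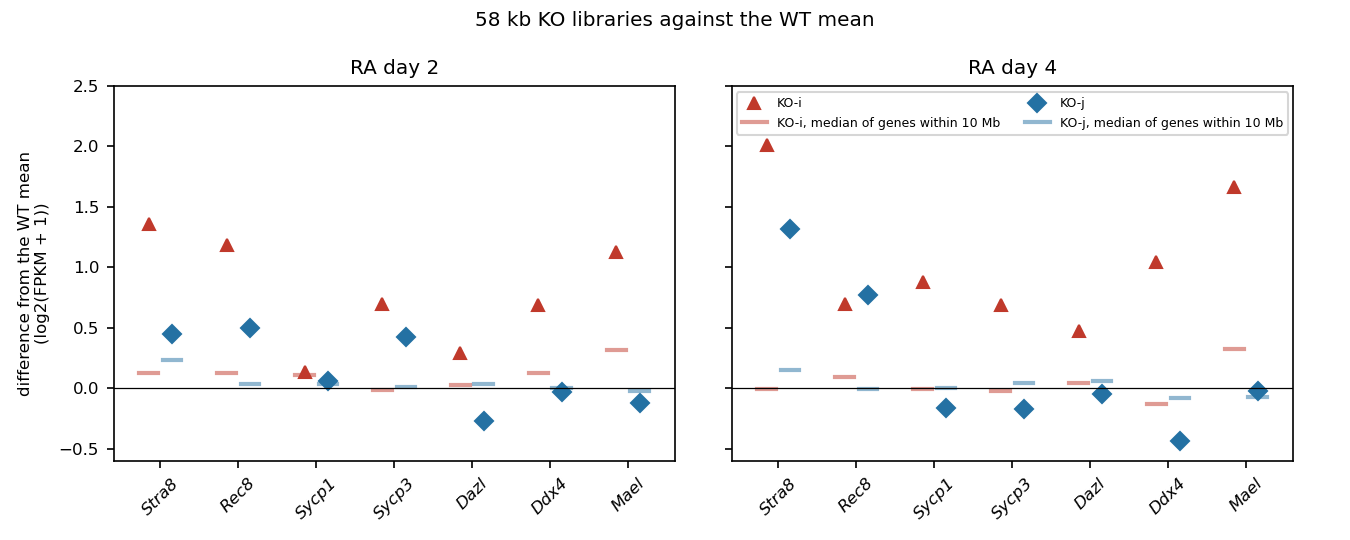
Difference of each knockout library from the WT mean of its day, in log2(FPKM + 1), for the 7 genes at RA day 2 and day 4; points are KO-i and KO-j, and short bars are the medians of genes within 10 Mb. Stra8 and Rec8 are above 0 in both knockout libraries at both days, while Dazl, Ddx4 and Mael are above 0 in KO-i only.

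Other meiotic and germ cell RNA genes were also higher in KO-i than in KO-j. Of 4 lists (meiotic entry and cohesin, synaptonemal complex and chromosome axis, recombination, germ cell RNA and piRNA), 34 genes were tested, and 16 of them exceeded 0.5 log2 units for KO-i over KO-j at both days, beside 2.30% of all genes. KO-i was the highest library at both days for 24 of the 34, beside 19.3% of all genes. By list the counts were 2 of 4, 3 of 7, 2 of 7 and 9 of 16. In the list of primordial germ cell genes it was 0 of 8, in that of germline repressors 0 of 18 and in that of RA handling 0 of 16. Among the genes counted, Smc1b reached 1 FPKM only in KO-i (2.17 and 4.06), and Boll outside KO-i only in WT-1 at day 2 (1.30). Neither would have been tested without KO-i, so their place in the counts is not independent of the filter. Stag3, the meiotic cohesin partner of REC8, stood at 13.4 and 16.4 FPKM in WT-1 and WT-2, with 44.2 for KO-i and 17.2 for KO-j at day 2. At day 4 it stood at 16.1, 15.8, 119 and 24.1, with KO-i again far above the rest. Syce1, of the central element of the synaptonemal complex, stood at 26.4 and 29.3 FPKM in KO-i and at 8.81 to 12.5 in the other 6 libraries. Piwil2, a PIWI protein of the piRNA pathway, was listed at 11.1 and 5.55 FPKM in KO-i against 4.36 to 5.32 in the other libraries of day 2 and 1.49 to 2.00 in those of day 4. Mov10l1, the helicase that starts piRNA processing, stood at 10.7 and 9.17 FPKM in KO-i against 2.11 to 6.21 elsewhere. For 58 kb KO against WT, 0 of the 74 tested genes of all 7 lists passed in limma at either day, with 2 at day 2 (2.70%) and 15 at day 4 (20.3%) under 0.05 before adjustment, beside 5.11% and 14.4% of all tested genes.

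**Figure D3:**
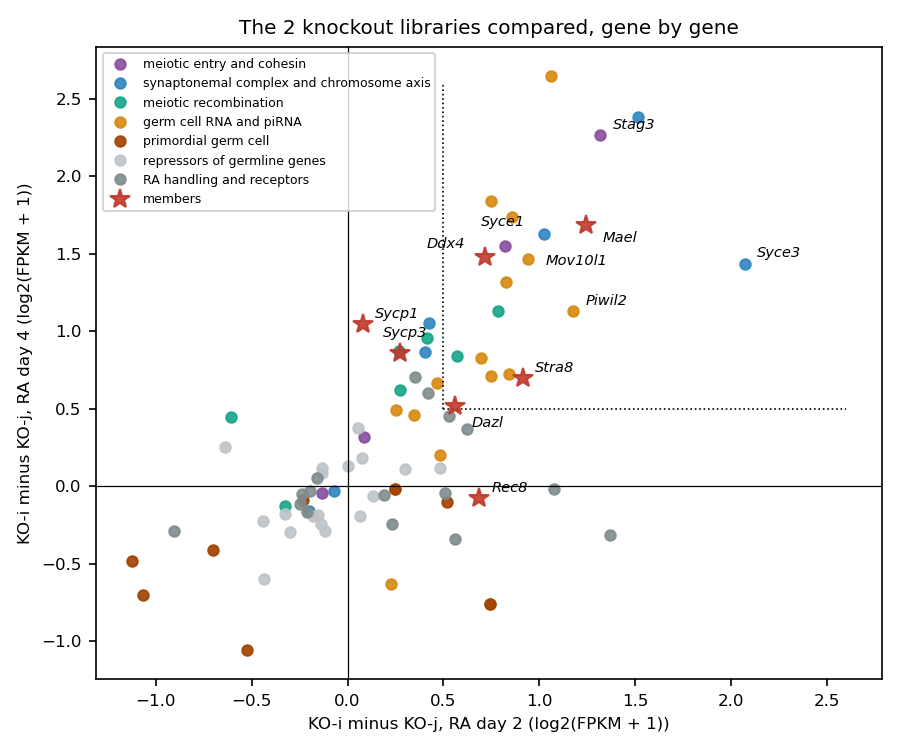
KO-i minus KO-j in log2(FPKM + 1) at RA day 2 (x axis) and day 4 (y axis); each circle is a tested gene of 1 of 7 lists and each star is 1 of the 7 genes, and dotted lines mark 0.5 log2 units. The upper right corner holds 4 of 7 stars and 16 of 34 circles of the 4 meiosis and germ cell RNA lists, and none from the lists of primordial germ cell genes, repressors and RA handling. Of those 16, Smc1b and Boll would not have been tested without KO-i.

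The changes of the lists with time are read against all tested genes, of which 14.4% rose and 10.9% fell in WT and 10.0% rose and 7.81% fell in 58 kb KO. In the recombination list 1 of 7 fell in each genotype, Rec114, a partner of the enzyme that makes meiotic breaks, by 1.42 log2 units in WT (limma adjusted p = 0.0170) and 1.15 in 58 kb KO (limma adjusted p = 0.0460). Of 4 cohesin genes tested, Sgol2, the protector of centromeric cohesin, fell by 0.59 log2 units in each genotype (limma adjusted p = 0.0221 and 0.0312). In the list of the synaptonemal complex 0 of 7 passed in WT and 1 of 7 rose in 58 kb KO, Tex12, which stood at 0 to 0.617 FPKM in 6 libraries and reached 1 FPKM only in the knockout libraries of day 4 (1.16 and 1.41), through which alone it was tested. In the germ cell RNA list 1 of 16 fell in WT (Gtsf1) and 3 of 16 in 58 kb KO (Gtsf1, Piwil4 and Tdrd12), all at low levels. Gtsf1 and Piwil4 were tested only through their day 2 libraries. Tdrd12 would not have been tested without day 2 either, since at day 4 only KO-i reached 1 FPKM (1.14). In the list of primordial germ cell genes 3 of 8 fell in WT (Kit, Tfap2c and Prdm14) and 2 of 8 in 58 kb KO (Kit and Tfap2c). At day 4 Prdm14 reached 1 FPKM only in KO-j (1.06). It was thus tested only because of its day 2 libraries, and the direction of its call is not independent of the filter. Kit, the stem cell factor receptor, fell by 1.19 log2 units in WT and 1.49 in 58 kb KO, and Tfap2c, a specification factor of primordial germ cells, by 2.30 and 1.97. Dppa3 (Stella), a marker of primordial germ cells, was at most 0.636 FPKM in the RA libraries, and Sohlh1, a spermatogonial factor, at most 0.561. Sohlh2, its partner, stood at 33.7 to 44.3 FPKM in all 8. Tex101, from the same list of male germ cell markers, stood at 5.39 and 7.87 FPKM in KO-i and at 0.235 to 1.45 in the other libraries. Zbtb16, also from that list, rose with time by 1.17 log2 units in WT (limma adjusted p = 0.00859). Its rise of 0.60 log2 units in 58 kb KO did not pass (limma adjusted p = 0.0956). The summed level of 5 germ cell markers, Dazl and Ddx4 among them, was 15.7 to 28.9 FPKM and highest in KO-i at both days, which rests on Dazl and Ddx4. The other 3 (Dppa3, Nanos3 and Prdm1) summed at day 2 to 7.55 FPKM in KO-i, within the 7.00 to 9.96 of the other libraries, and on day 4 to 2.91, below the 4.28 to 6.74 of the others.

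Among 18 repressors of germline genes, 7 fell and 1 rose with time in WT (10.9% and 14.4% of all tested genes did), and 4 fell and 1 rose in 58 kb KO (7.81% and 10.0%). Dnmt3l, the cofactor of new methylation, fell by 2.20 and 2.32 log2 units, Dnmt3b by 1.15 and 0.76, and Uhrf1, which guides maintenance methylation, by 0.60 and 0.69. E2f6, a DNA-binding subunit of PRC1.6, rose by 0.50 log2 units in WT (limma adjusted p = 0.0188) and 0.41 in 58 kb KO (limma adjusted p = 0.0467). Against WT, none of the 18 passed in the knockout cells, and the median difference of the list was -0.06 log2 units at day 2 and -0.04 at day 4, beside 0.04 and 0.02 over all genes.

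Of 16 genes of RA handling and reception, 6 rose and 1 fell with time in each genotype. Of all tested genes 14.4% rose and 10.9% fell in WT, and 10.0% rose and 7.81% fell in 58 kb KO. The genes that rose were not all the same. Stra6 passed in WT only (limma adjusted p = 0.0138, against 0.264 in 58 kb KO) and Cyp26a1 in 58 kb KO only (limma adjusted p = 0.0332, against 0.145 in WT). Rarb, an RA receptor that is also an RA target, rose by 2.27 log2 units in WT and 1.72 in 58 kb KO, Cyp26b1, an enzyme that degrades RA, by 1.90 and 2.34, and Rarg, another receptor, fell by 1.77 and 0.98. Stra8 in WT, with values of 395 to 1165 FPKM, was not among the genes that rose. Cyp26a1, the other main RA-degrading enzyme, is given here after its values were seen, because its order at day 4 matched that of Stra8. It stood at 738 FPKM in WT-1, 480 in WT-2, 1359 in KO-i and 995 in KO-j, a difference of 0.97 log2 units that did not pass (limma adjusted p = 0.239). At day 2 the order differed from that of Stra8, with 462, 311, 618 and 428 FPKM in the same libraries. Over the 16 genes the median knockout difference at day 4 was 0.03 log2 units, beside 0.02 over all tested genes, and 0 passed.

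The genes whose profile over the 8 RA libraries was most like that of Stra8 were Fbxo2, Arrdc2, Dkkl1, Tex14 and Tmem88, out of 811 genes with a range of at least 2 log2 units. Pearson's r of log2(FPKM + 1) with Stra8 was 0.97, 0.92, 0.87, 0.86 and 0.82 over 8 libraries, which share names and depth, so these are descriptions without a test. Fbxo2, a ubiquitin ligase adaptor for glycoproteins, ran from 3.66 FPKM in WT-2 at day 4 to 30.0 in KO-i at day 2. Tex14, a protein of the bridges between germ cells, ran from 2.79 to 14.9 FPKM and was highest in KO-i at both days. Rec8 gave an r of 0.43 with Stra8. Among the other members the closest pairs were Ddx4 with Mael (0.91), Dazl with Mael (0.91) and Sycp1 with Ddx4 (0.89).

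**Figure D4:**
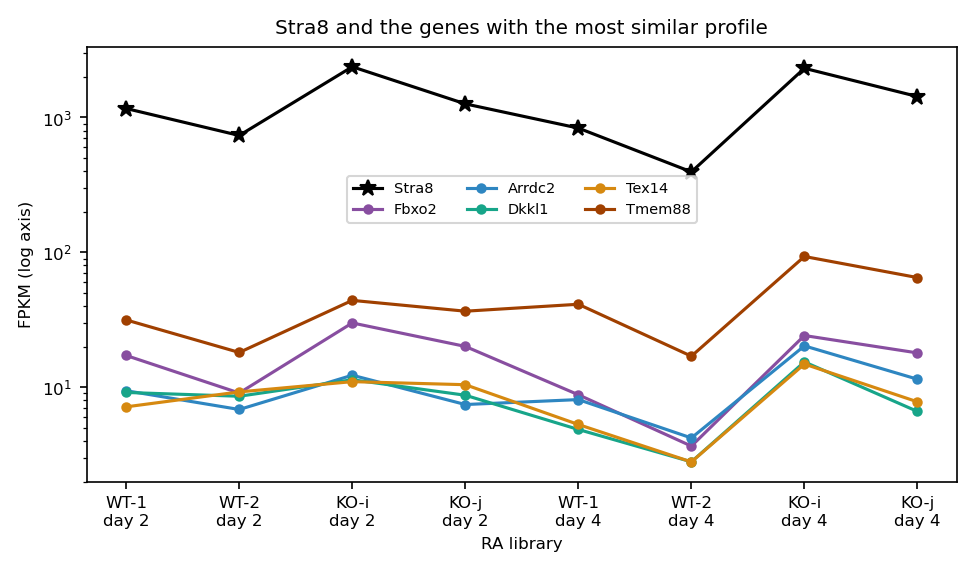
FPKM on a log axis of Stra8 and the 5 genes most like it, in the 8 RA libraries. All are lowest in WT-2 at day 4 and high in KO-i at both days, and Stra8 lies far above the others, at 395 to 2376 FPKM.

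Without RA the pattern was another. Stra8 stood at 5.33 FPKM at day 0, 0.432 at day 2, 0 at day 4 and 0.113 at day 6 after LIF withdrawal. In the derived lineages it stood at 0 in ME, 0.233 in NPC and 0.0717 in NSC. Its rank was 6800 of 27435 named genes at day 0 and 12385 or beyond in the other columns, whereas in RA it was 149 or better. The tables were normalized separately and differ in cell line, medium before treatment and library protocol, so RA and these features cannot be told apart, and no test was made across them. Rec8 stood at 3.67 FPKM at day 0, 3.57 at day 2, 3.41 at day 4, 2.61 at day 6, 1.22 in ME, 1.59 in NPC and 0.192 in NSC, all below its 80.6 to 397 in RA. Sycp3 stood at 14.9 FPKM at day 0, 6.87 at day 2, 1.52 at day 4, 1.31 at day 6, 10.7 in ME, 4.38 in NPC and 0.0987 in NSC. Days 0 and 2, ME and NPC lay above all RA libraries (at most 3.04), days 4 and 6 lay within the RA day 2 range of 1.27 to 3.04, and NSC lay below all RA libraries except KO-j at day 4. In sorted mesendoderm Sycp3 lay within 1 log2 unit of its day 0 level, while Stra8 was listed at 0 there.

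The germ cell RNA genes were lower than at day 0 in the columns from day 4 on, and Ddx4 and Mael were higher at day 2. Ddx4 stood at 8.31 FPKM at day 0, 18.4 at day 2, 3.99 at day 4, 4.81 at day 6, 5.33 in ME, 2.53 in NPC and 0.0334 in NSC. Mael stood at 2.92, 3.46, 0.293 and 0.626 FPKM over days 0, 2, 4 and 6, and at 0 in ME, 0.975 in NPC and 0 in NSC. Dazl was at most 0.833 FPKM, at day 0, and so lay below its RA values of 5.85 to 12.5 in every column. Sycp1 stood at 2.55 FPKM at day 0, 1.88 at day 2 and between 0.351 and 0.663 in the other columns.

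Since 6 of 7 genes reached 1 FPKM in a column of this table (Dazl did not), 6 were counted. Stra8 did so only at day 0, and Sycp1 and Mael only at days 0 and 2, so their lower levels in later columns are partly set by this filter and the counts are a description. On the scale of log2(FPKM + 1), those lower than day 0 by more than 1 unit were 2 of 6 at day 2 (Stra8 and Sycp3, against 5.07% of 14189 genes), 4 of 6 at day 4 (against 8.62%) and 4 of 6 at day 6 (against 6.97%). Rec8 and Ddx4 were the genes outside that count at days 4 and 6. Among the lineages the counts were 4 of 6 in ME (against 10.7%), 4 of 6 in NPC (against 11.7%) and 6 of 6 in NSC (against 16.5%). Higher by more than 1 unit was 1 of 6 at day 2, Ddx4, against 4.58% of genes. Single libraries and means carry no error, so these are sizes only.

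**Figure D5:**
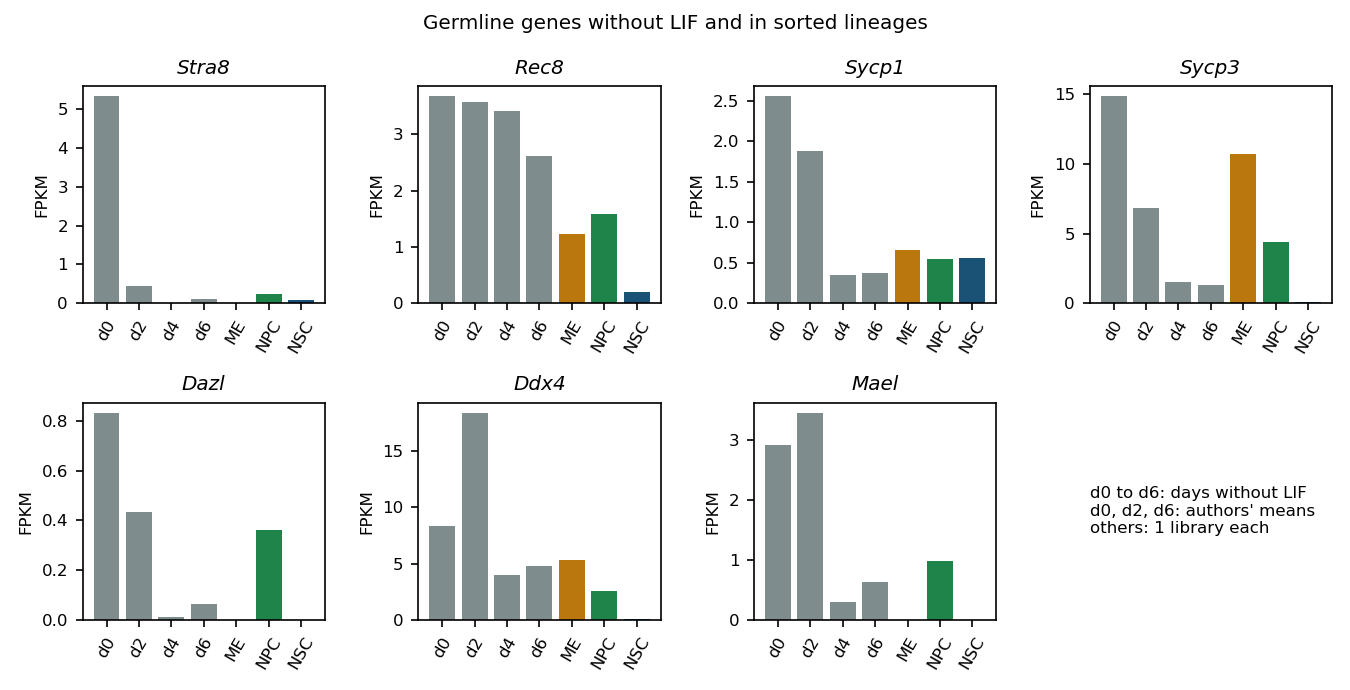
FPKM (linear axes from 0) of the 7 genes at days 0 to 6 without LIF and in ME, NPC and NSC; each bar is 1 deposited column, which is the authors' mean at days 0, 2 and 6 and 1 library otherwise. Stra8 is at 5.33 FPKM at day 0 and under 0.5 in all other columns, Ddx4 is highest at day 2, and Sycp3 is at 10.7 FPKM in ME.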

How the data were processed

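RNA sequencing values for 20 of 54 samples were used, and the other 34 samples were not analysed here. The values deposited by the authors carry no unit in a header, and were judged to be FPKM from how they fall with gene length. Tools named in the submitters' processing notes are TopHat2 2.0.11, Bowtie 1.0.0, MACS 1.4.2 and CASAVA, with the build mm9. Which program made the FPKM values was not given in the sources used here. Starts are listed from 0 and are printed from 1. Per the labels' protocols the RA libraries came from kits that do not mark strand, and the other libraries were stranded.

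Values were taken to log2(FPKM + 1). A gene was tested if 2 or more of the 8 RA libraries reached 1 FPKM, which left 15705 genes, all 7 studied genes among them. The 4 groups were fitted together by limma 3.58.1 (R 4.3.3) with the trend option, leaving 4 residual degrees of freedom besides 3.50 from the prior, with Benjamini-Hochberg adjustment over all genes and a threshold of 0.05. The fit was tested on simulated data. The labels name no separate cultures within a group, so p-values measure only the spread between these samples. Columns of the other table were compared by size. Alternatives were the pseudocount, the filter, quantile normalization, the trend, a block by library name and each library left out, and leaving out KO-i at both days was added after seeing the data. All 7 genes are named, together with up to 6 genes a list that passed in a contrast or reached a mean of 5 FPKM in an RA group, by smallest p, and the 5 genes most like Stra8. Markers were named from their lists. The genes, lists and tests were chosen with earlier results of these data known. Exact 0 values may be failed estimates. Of the lists, Meiosin and Rnf212 had no matching symbol. Promoters and synonyms came from RefSeq (GRCm38.p6). Dazl and Ddx4 values of the RA table are sums of several estimates. Python 3.11.15 with pandas 2.3.3 drew the tables.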

Additional observations from a re-analysis of the deposited data

How the results depend on the processing

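The rise of Rec8 and the fall of Sycp3 from day 2 to day 4 kept their direction in every alternative run. Sycp3 lost its call with a pseudocount of 0.1 FPKM (limma adjusted p = 0.0656 in WT and 0.0564 in 58 kb KO). Rec8 lost it without the filter on low values (0.0541 and 0.0886) and, in 58 kb KO, without the trend (0.0664). Genes called over the whole table numbered 1 for 58 kb KO against WT at day 4 with the pseudocount of 0.1. Without the filter they numbered 2 at day 2, 3 at day 4 and 3 for the difference of the days, and without the trend 1 for that difference, against 4, 0 and 0 as reported. Signs turned for Sycp1 from day 2 to day 4 in 58 kb KO (-0.00360 log2 units, pseudocount of 0.1) and for Dazl at day 2 in the knockout difference (-0.0355 log2 units, quantile normalization). The cause was not tested.

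With 1 library left out, the lone library of a group is assumed to vary like the other groups. The knockout difference of Stra8 then ran from 0.45 to 1.36 log2 units at day 2 and from 1.12 to 2.20 at day 4, its difference between days from 0.22 to 1.30, its day change in WT from -1.23 to -0.15 and in 58 kb KO from -0.39 to 0.53. The knockout difference at day 2 ran from -0.27 to 0.29 for Dazl, from -0.0286 to 0.69 for Ddx4 and from -0.12 to 1.12 for Mael. At day 4 it ran from -0.16 to 0.88 for Sycp1, -0.17 to 0.69 for Sycp3, -0.0451 to 0.48 for Dazl, -0.44 to 1.04 for Ddx4 and -0.0195 to 1.66 for Mael. The day change in WT ran from -0.55 to 0.0833 for Ddx4. In 58 kb KO it ran from -0.46 to 0.59 for Sycp1, -0.50 to 0.0646 for Dazl, -1.003 to 0.48 for Ddx4 and -1.28 to 0.40 for Mael. Genes called ran from 0 to 1 at day 2, 0 to 7 at day 4 and 0 to 1 for the difference. For the day change they ran from 1494 to 1917 (WT, 3973 as reported) and 736 to 2159 (58 kb KO, 2802 as reported). These ranges include the fit without KO-i at both days, which alone gave the 1 at day 2 and the 736. With any 1 library of day 2 left out, no gene kept its knockout call at that day.

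Library names were tried as a block, since WT-1, WT-2, KO-i and KO-j recur at both days. Over all genes, deviations from group means correlated across days at 0.0849 in WT and 0.260 in 58 kb KO. The names were not used to pair the samples in the fit as reported. Some differences did recur with a name, such as the chromosome 1 median of KO-i (0.31 and 0.29 log2 units at days 2 and 4). Whether the names pair the samples is therefore not settled. With the block, the WT day change of Stra8 (-0.69 log2 units), Dazl (-0.42) and Mael (-0.76) passed, with limma adjusted p = 0.0127, 0.0468 and 0.0134. The block changed no call of a member for 58 kb KO against WT. With a pseudocount of 0.1 FPKM the genes lower than at day 0 without LIF were 5 of 6 at day 4 and 6 of 6 in NPC, against 4 of 6 each as reported. Quantile normalization moved the median of all genes by less than 0.1 log2 units.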
